A study of Caenorhabditis elegans with 5 samples.

Results

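Messenger RNA of *hrde-1* mutant worms was set against that of a triple mutant in *met-2*, *set-25* and also *set-32*, using the 2 libraries of these genotypes out of the 5 in the mRNA table. Gene models entered the comparison when their level reached at least 5 RPKM (a read density normalized to model length and library depth) in the higher of the 2 libraries, which 10132 of 20911 models did. The difference is the log2 of (*hrde-1* RPKM + 1)/(triple mutant RPKM + 1), so a positive value means a higher level in *hrde-1*. All models were treated alike, whether or not they stood on the target lists of the study.

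Poly(A)-enriched RNA came from pooled, synchronized young adult *C. elegans*, whole hermaphrodites raised at 19 °C on OP50 bacteria. The genotypes were hrde-1 (tm-1200), the triple mutant with met-2(n4256), the allele set-25(ok5021) and also set-32(ok1457), a double mutant with the same *met-2* and *set-25* alleles, the single mutant set-32(ok1457) and WT (N2). Each had 1 library, so the differences could not be checked in replicates, no p-value was computed, and models past 2-fold were counted by size only.

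HRDE-1 is a germline Argonaute protein that carries small interfering RNAs into the nucleus, where it silences the genes and retrotransposons that match them. MET-2 and SET-25, together with SET-32, are histone methyltransferases that act on lysine 9 of histone H3 (H3K9), a modification laid down at nuclear RNAi targets and at heterochromatin in general. Setting the Argonaute mutant against the triple mutant asks which transcripts differ between worms without the small RNA carrier and worms without these enzymes.

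By the steps between low values, *hrde-1* was the shallowest and the triple mutant the deepest of the 5 libraries, and 5 RPKM stood for about 9.06 and 14.5 reads per kilobase in these 2 libraries. Of the models compared, 265 (2.62%) were at least 2-fold higher in *hrde-1* and 580 (5.72%) at least 2-fold lower, and the median log2 ratio over all 10132 was 0.04. A 95% counting interval of the ratio, which covers counting error only, excluded 1 for 185 of the models that were higher and 387 of those that were lower. The count of both directions was 845 here and 399 to 865 in the other 9 pairs of libraries, which share libraries with this one and with each other. Because whole animals were used, fewer cells of a type and less RNA per cell cannot be told apart.

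**Figure D1:**
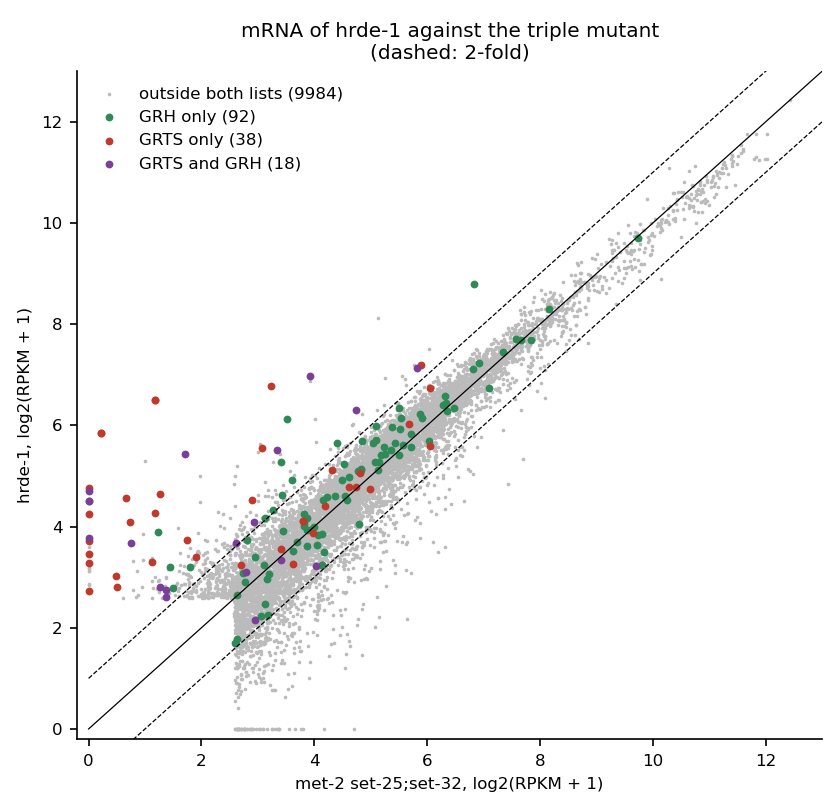
Level of each of the 10132 models compared, as log2(RPKM + 1), in *hrde-1* (vertical axis) and in the triple mutant (horizontal axis), 1 library each, colored by target list; the solid line marks equal levels and the dashed lines 2-fold. GRTS models, on the study's list of transcriptional silencing targets, lie above the upper dashed line in 37 of 56 cases and never below the lower one, while models outside both lists spread to both sides, 215 above and 580 below.

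The mutated genes were examined first. For *met-2* (III, 8375300 to 8380848, build WBcel235) the level was 42.5 RPKM in *hrde-1*, 9.45 in the triple mutant, 12.56 in the double mutant, 34.4 in *set-32* and 47.3 in WT. Its ratio of *hrde-1* to the triple mutant was 4.49 (3.58 to 5.63). *set-25* (III, 13283824 to 13293090) had 19.2 RPKM in *hrde-1*, 8.64 in the triple mutant, 10.34 in the double mutant, 17.3 in *set-32* and 17.5 in WT, and *set-32* (I, 9519244 to 9521275) had 14.5, 5.65, 12.27, 8.15 and 12.51 RPKM in the same order. All 3 methyltransferase genes were thus lowest in the triple mutant, with ratios of 2.22 (1.53 to 3.19) for *set-25* and 2.57 (1.56 to 4.52) for *set-32*. *hrde-1* itself (III, 4172337 to 4176159) was lowest in its own mutant at 159.7 RPKM, against 204.0 in the triple mutant, 233.9 in the double mutant, 177.9 in *set-32* and 227.5 in WT, a ratio of 0.783 (0.722 to 0.849). Reads remained in every library, so these levels do not show by themselves that a deletion was present.

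The *met-2* and *set-25* deletions were genotyped with primers that the oligo list of the study places in the deleted regions, and these are shown because the triple mutant then lacks them while reads from the rest of each gene can still be counted. All 4 are 20 bases long and belong to genes on chromosome III.
met-2 SG-834: gttggcagccgtaatgaaat
met-2 SG-835: cgagccagacagaaatctcc
set-25 SG-836: atatggatgcccacgagaag
set-25 SG-837: ccgtgaaaaagagcatcaca

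The study's target lists were made from *hrde-1* mutants. GRTS stands for germline nuclear RNAi-dependent transcriptional silencing (121 models) and GRH for germline nuclear RNAi-dependent heterochromatin (142 models), and 27 models stand on both. GRTS genes were chosen for transcriptional silencing that *hrde-1* mutants lose, so a higher level in *hrde-1* is not independent evidence for them. GRH genes were chosen by chromatin in *hrde-1* mutants and not by their expression. The paper reports that many GRH loci changed little in transcriptional repression. Of the 236 listed models 148 reached 5 RPKM in the higher library. Among GRTS models 56 did, 37 of them at least 2-fold higher in *hrde-1* and 0 lower, with a median log2 ratio of 1.60, but 27 of the 56 were below 5 RPKM in the triple mutant and so entered through the library in which they were high. When models were instead chosen by a mean of 5 RPKM in the double mutant, *set-32* and WT, 21 GRTS models passed and their median was 0.31. The median over all 121 GRTS models was also 0.31, and 23 of the 121 were at 0 in both libraries. Among the 92 GRH models that were compared and were not GRTS, 13 were at least 2-fold higher and 0 lower, with a median of 0.20. One of these 13 was *set-25* itself, which the triple mutant lacks in part.

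The highest ratios of all belonged to GRTS genes of chromosome V. F07B7.1 and its identical copy W09B7.1, which share their reads, had 56.3 RPKM in *hrde-1*, 0.17 in the triple mutant, 1.40 in the double mutant, 0.22 in *set-32* and 0.79 in WT. Their neighbours F07B7.2 and W09B7.2, also identical to each other, had 90.1 RPKM in *hrde-1*, against 1.27 in the triple mutant, 1.53 in the double mutant, 4.53 in *set-32* and 4.13 in WT, a ratio of 71.0 (23.8 to 231.3). Only *hrde-1* carried appreciable levels of these genes. The triple mutant had the lowest value of the 5 libraries for both, but on about 0 reads for F07B7.1 and 4 for F07B7.2. Its rank against the next library, *set-32* at 0.22 and the double mutant at 1.53 RPKM, was not resolved at this depth. ZC15.3 (V, 20303588 to 20304908), the other GRTS gene of this chromosome among the 8 highest, had 22.6 RPKM in *hrde-1*, 0.59 in the triple mutant, 0 in the double mutant, 0 in *set-32* and 0.71 in WT.

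Of the 8 highest listed genes, 5 were at 0 in the triple mutant. F55B11.6 (IV, 14416262 to 14417228) had 26.3 RPKM in *hrde-1* and 0 in every other library, at least 6.95-fold higher taking 3 reads as the upper limit for a library at 0. Such a bound takes the reads of the higher library as exact, and the counting interval of the ratio, which allows for error in both, began at 4.89. *gpx-8*, a glutathione peroxidase gene (I, 10782115 to 10782890), had 24.9 RPKM in *hrde-1*, 0.78 in *set-32* and 0 in the triple mutant, the double mutant and WT, at least 10.5-fold higher than in the triple mutant, with an interval from 7.93. F55A3.6, next to *gpx-8* (I, 10784187 to 10784831), had 21.8 RPKM in *hrde-1*, 1.36 in the double mutant and 0 in the other libraries. All 3 were at 0 in both the triple mutant and WT. *fbxb-14*, a GRH gene for an F-box protein of the kind that selects substrates for degradation (II, 582111 to 582749), had 21.7 RPKM in *hrde-1*, 0 in the triple mutant, 1.52 in the double mutant, 0.71 in *set-32* and 0 in WT, at least 13.4-fold higher than in the triple mutant, with an interval from 10.10. The pseudogene F49F1.8 (IV, 4130503 to 4134631) had 18.01 RPKM in *hrde-1*, 0 in the triple mutant, 0.26 in the double mutant, 0.49 in *set-32* and 0 in WT, at least 32.3-fold higher than in the triple mutant, with an interval from 25.3.

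Many listed genes had reads in the triple mutant. Among the 37 GRTS models that were at least 2-fold higher in *hrde-1*, the triple mutant was at 0 for 9, below 5 RPKM for 27 and at 5 RPKM or more for 10. For the 13 GRH-only models it was at 0 for 1, below 5 RPKM for 5 and at 5 RPKM or more for 8. These counts describe models already chosen by list and by ratio. Over all 50 listed models the triple mutant was at or below WT for 33 and between WT and *hrde-1* for 17, and *hrde-1* was the highest of the 5 libraries for all 50. The choice by ratio raises this last count. *hrde-1* was also the highest for 214 (80.8%) of all 265 higher models, listed or not, and for 25.8% of all models compared.

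C38D9.2, on the GRTS list, and F15D4.5, on both lists, had triple mutant levels above WT and are named here after their values were seen. C38D9.2 (V, 17567150 to 17571742) had 109.6 RPKM in *hrde-1*, 8.44 in the triple mutant, 5.71 in the double mutant, 0.51 in *set-32* and 0 in WT, and a ratio of *hrde-1* to the triple mutant of 12.98 (9.26 to 19.1). F15D4.5 (II, 13245376 to 13247774) had 139.8 RPKM in *hrde-1*, 55.6 in the triple mutant, 41.7 in the double mutant, 1.54 in *set-32* and 2.24 in WT, with a ratio of 2.51 (2.13 to 2.97). For both genes the order was *hrde-1*, triple mutant, double mutant and then the other 2 libraries. *timm-17B.2*, a GRH gene for a protein of the mitochondrial import machinery (IV, 8396648 to 8397954), had 441.9 RPKM in *hrde-1*, 113.0 in the triple mutant, 9.65 in the double mutant, 204.3 in *set-32* and 17.4 in WT. It differed 3.91-fold (3.20 to 4.80), and here the triple mutant ranked below *set-32* and above the double mutant.

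Other listed genes, also named after their values were seen, show how unlike the triple mutant levels were. Y23H5A.8 had 125.0 RPKM in *hrde-1*, 14.3 in the triple mutant, 13.46 in the double mutant, 15.1 in *set-32* and 11.4 in WT, so the 4 other libraries lay together. *ife-5*, for a translation initiation factor 4E that binds the mRNA cap, had 78.4 RPKM in *hrde-1*, 25.6 in the triple mutant, 3.88 in the double mutant, 19.5 in *set-32* and 10.98 in WT, which spread the libraries widely. *ugt-22*, for a UDP-glucuronosyltransferase of detoxification, had 144.7 RPKM in *hrde-1*, 58.3 in the triple mutant, 35.9 in the double mutant, 79.4 in *set-32* and 71.1 in WT, a ratio of 2.48 (2.12 to 2.90), and here the triple mutant was below WT. *sosi-1* had 11.70 RPKM in *hrde-1* and at most 0.68 elsewhere, the triple mutant being the next highest.

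**Figure D2:**
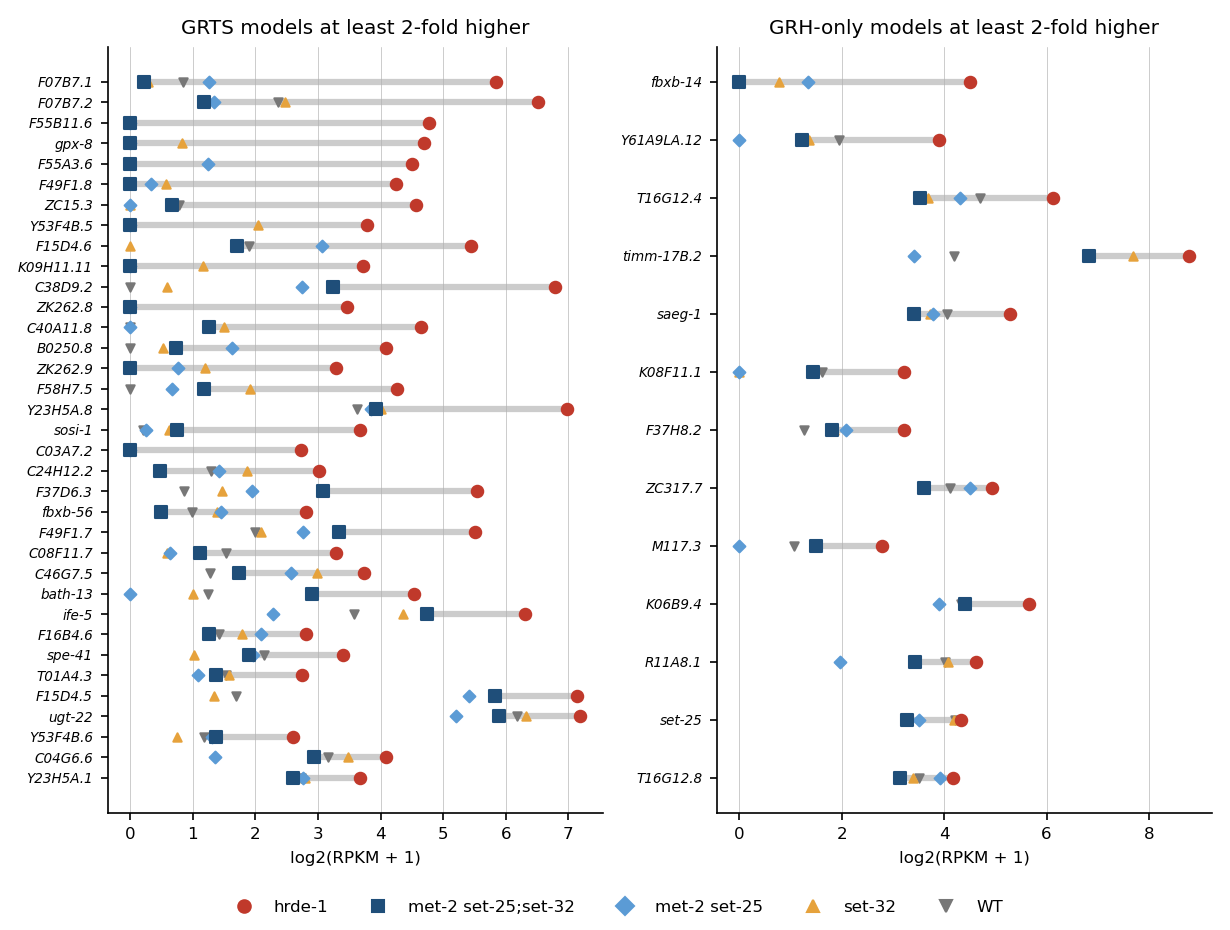
Levels, as log2(RPKM + 1), of the GRTS models (left panel) and the GRH-only models (right panel) at least 2-fold higher in *hrde-1*, with identical copies drawn once; each symbol is 1 library and the gray bar joins *hrde-1* and the triple mutant, whose symbols cover others at the same level. Triple mutant squares sit at 0 for 9 of the 37 GRTS models, and *hrde-1* is rightmost in all.

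None of the listed models was 2-fold lower in *hrde-1*. The lowest whose interval excluded 1 was W05F2.4, with 3.71 RPKM in *hrde-1* and 7.29 in the triple mutant (log2 ratio -0.82), followed by *col-157*, a cuticle collagen gene, with 8.27 and 15.3 RPKM (-0.81), B0391.10 with 10.35 and 17.1 (-0.67), and Y49E10.4 with 47.4 and 65.5 (-0.46). At the edge of the filter, Y53F4B.6, on both lists, entered with 5.09 RPKM in *hrde-1* and 1.59 in the triple mutant, while the GRH gene Y76G2A.2, at 4.62 and 4.32 RPKM, did not.

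Outside both lists, 9984 models were compared, of which 215 passed 2-fold upward and 580 downward in *hrde-1*, with intervals that excluded 1 for 143 and 387 of these. *met-2* and *set-32*, which are mutated in the triple mutant, are among the 215. Genes outside the lists thus made up 215 of the 265 higher models and all 580 lower ones. *hrde-1* was the highest of the 5 libraries for 164 of the 215 and the triple mutant the lowest for 122, and of the 580 *hrde-1* was the lowest for 444 and the triple mutant the highest for 350. The choice by ratio raises all 4 of these counts. Over the 9984 models *hrde-1* was the highest in 25.2% and the lowest in 24.1%, and the triple mutant was the highest in 15.8% and the lowest in 18.95%. WT was nearer the triple mutant for 123 of the 215 and 304 of the 580, close to the 4959 of 9984 over all models outside the lists.

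The highest ratio outside the lists was that of *cyp-35A3*, a cytochrome P450 gene (V, 4022609 to 4024482), with 38.4 RPKM in *hrde-1*, 0.99 in the triple mutant, 1.70 in the double mutant, 2.60 in *set-32* and 3.56 in WT. The ratio of *hrde-1* to the triple mutant was 38.8 (15.7 to 154.7), and the 4 libraries other than *hrde-1* all lay at or below 3.56 RPKM. *asp-12*, an aspartyl protease gene (V, 8269210 to 8272056), had 277.3 RPKM in *hrde-1*, 33.9 in the triple mutant, 53.8 in the double mutant, 15.7 in *set-32* and 52.1 in WT, a ratio of 8.18 (6.69 to 10.05). *irg-4*, an infection response gene (IV, 12435833 to 12438236), had 117.1 RPKM in *hrde-1*, 14.2 in the triple mutant, 2.96 in the double mutant, 7.51 in *set-32* and 6.86 in WT, a ratio of 8.26 (5.90 to 11.7). For all 3 genes *hrde-1* stood alone above the other libraries.

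The other 9 of the 12 highest had lower levels. The pseudogene Y48G1BM.8 (I, 248624 to 251580) had 30.8 RPKM in *hrde-1* and 2.93 in the triple mutant, with 6.62 in the double mutant, 5.25 in *set-32* and 4.80 in WT. T16G1.7 (V, 12932941 to 12935112) had 13.5 and 0.96 RPKM, with 1.35 in the double mutant, 0 in *set-32* and 1.72 in WT. T26E3.7, R09E10.2, the pseudogene K09E3.4, C46C2.3, Y50D4B.1, Y57A10C.11 and Y53C12A.7 had 5.48 to 10.37 RPKM in *hrde-1* and 0 in the triple mutant, which with about 4 to 13 reads in *hrde-1* makes them at least 2.14-fold to at least 6.97-fold higher on the same floor, while their counting intervals began lower, at 1.06 to 4.89. For Y50D4B.1 the triple mutant was the library that stood apart, since the double mutant had 6.73 RPKM, *set-32* 3.15 and WT 5.75, against 7.70 in *hrde-1*.

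The lowest ratio was that of *srlf-3* (IV, 8487483 to 8488490), with 0 RPKM in *hrde-1*, 25.1 in the triple mutant, 28.6 in the double mutant, 26.7 in *set-32* and 11.9 in WT. It was at least 10.7-fold lower in *hrde-1* than in the triple mutant on the floor of 3 reads, with an interval from 8.30-fold, and *hrde-1* was the only library at 0. *cut-2*, a gene for a cuticlin of the noncollagen part of the cuticle (V, 13414949 to 13416064), had 3.50 RPKM in *hrde-1*, 49.0 in the triple mutant, 19.6 in the double mutant, 15.1 in *set-32* and 23.8 in WT, a ratio of 0.0714 (0.0186 to 0.185). C55C3.3 (IV, 5685287 to 5688273) had 1.77 RPKM in *hrde-1*, 27.6 in the triple mutant, 9.60 in the double mutant, 2.32 in *set-32* and 2.91 in WT. Here *hrde-1* lay near WT, and the triple mutant was the highest library.

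*dmd-9*, for a transcription factor of the DM domain family (IV, 3253261 to 3254543), had 1.31 RPKM in *hrde-1*, 22.5 in the triple mutant, 22.3 in the double mutant, 4.82 in *set-32* and 8.31 in WT. *cnc-2*, for an antimicrobial peptide of the caenacin family (V, 1449665 to 1450183), had 0 RPKM in *hrde-1*, 17.1 in the triple mutant, 7.06 in the double mutant, 11.9 in *set-32* and 2.41 in WT, at least 2.23-fold lower on that floor and with a counting interval from 1.56-fold. The remaining 7 of the 12 lowest, F56F11.1, Y49G5A.1, H23N18.5, W08E12.2, C15H11.1, C33F10.11 and ZK177.9, were at 0 in *hrde-1* and at 8.50 to 12.91 RPKM in the triple mutant, on about 9 to 20 reads.

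**Figure D3:**
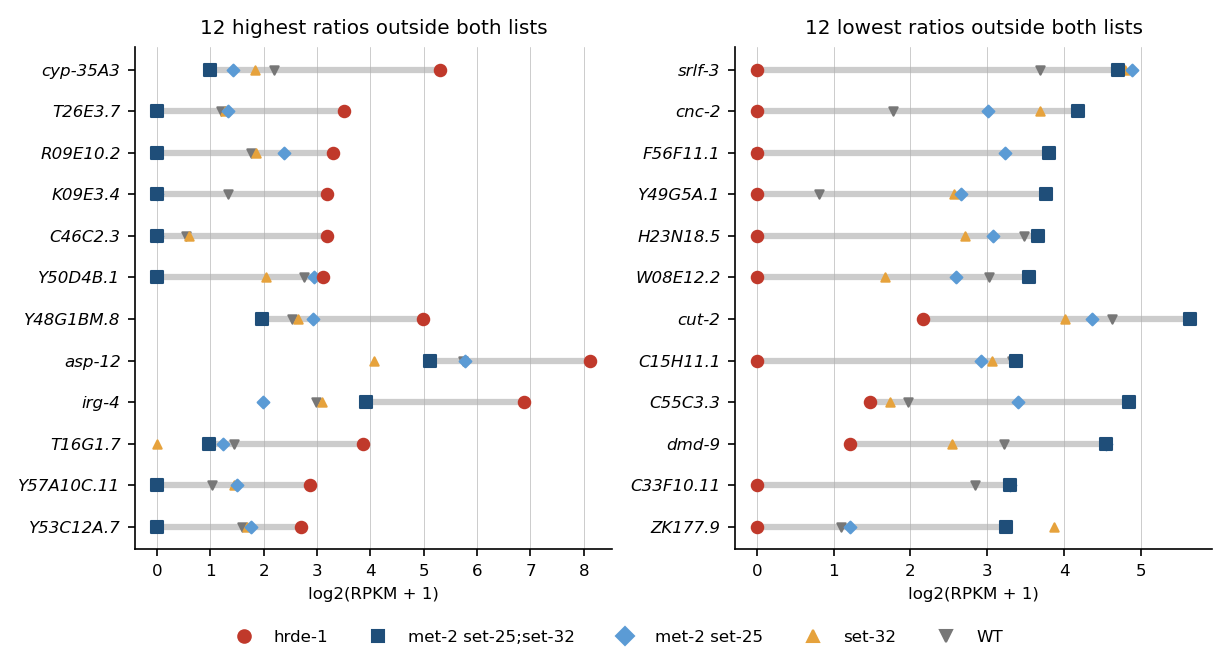
Levels, as log2(RPKM + 1), in the 5 libraries of the 12 genes with the highest ratios (left panel) and the 12 with the lowest (right panel) outside both target lists, by the rule that the counting interval excludes 1; each symbol is 1 library and the gray bar joins *hrde-1* and the triple mutant. *hrde-1* is the rightmost symbol in the left panel for all 12 genes, and in the right panel it is leftmost or, for F56F11.1, level with *set-32* and WT at 0.

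Calls were more frequent at low levels. Between 5 and 10 RPKM in the higher library, 97 of 1853 models were higher and 245 lower, and the interval excluded 1 for 49 and 113 of these. Between 50 and 100 RPKM 15 of 1996 models were higher and 44 lower, and every one of these had an interval that excluded 1. Of 1367 models whose higher library reached 100 RPKM or more, 13 were at least 2-fold higher in *hrde-1* and 17 lower, and every one of these 30 had an interval that excluded 1. *asp-12*, *irg-4*, C38D9.2, F15D4.5 and *timm-17B.2* were among the 13. Others were *cyp-35A2*, *fat-3* and, named after its values were seen, *lea-1*. *cyp-35A2*, a cytochrome P450 gene, had 121.6 RPKM in *hrde-1*, 37.3 in the triple mutant, 24.3 in the double mutant, 35.7 in *set-32* and 30.3 in WT, a ratio of 3.26 (2.68 to 3.95). *fat-3*, a fatty acid desaturase gene, had 110.9 RPKM in *hrde-1*, 48.2 in the triple mutant, 49.1 in the double mutant, 55.6 in *set-32* and 66.6 in WT. *lea-1*, for a protein of the late embryogenesis abundant family linked to desiccation, had 182.2 RPKM in *hrde-1*, 64.4 in the triple mutant, 79.8 in the double mutant, 56.2 in *set-32* and 63.2 in WT. In all 3 the triple mutant lay with the other libraries and *hrde-1* above them.

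Among the 17 abundant models that were lower, again named after their values were seen, C17H12.8 had 27.7 RPKM in *hrde-1*, 171.7 in the triple mutant, 124.0 in the double mutant, 88.0 in *set-32* and 51.8 in WT. *lys-7*, a lysozyme gene of the antimicrobial response, had 101.8 RPKM in *hrde-1*, 247.4 in the triple mutant, 225.1 in the double mutant, 301.6 in *set-32* and 170.9 in WT. *clec-63*, for a C-type lectin domain protein, had 473.7 RPKM in *hrde-1*, 1134 in the triple mutant, 1016 in the double mutant, 694.4 in *set-32* and 480.1 in WT, and *dod-23* had 91.9, 270.0, 410.0, 148.4 and 81.6 RPKM in the same order. For these last 2 genes *hrde-1* and WT were close and the triple and double mutants were high. Over the *dod* genes together, a family counted after its values were seen, 5 of 7 models were lower and the sums were 259.7 RPKM in *hrde-1*, 545.9 in the triple mutant, 639.7 in the double mutant, 406.6 in *set-32* and 281.7 in WT. The *enu-3* genes, counted likewise, had 4 of 5 lower, with sums of 58.3, 129.6, 95.5, 48.7 and 49.8 RPKM in the same order, so again *hrde-1* lay near WT.

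Collagens of the cuticle, the extracellular coat that the epidermis secretes, formed the list with the most models lower in *hrde-1*. Of 158 *col* models 91 were compared, and 46 (50.5%) were at least 2-fold lower and 1 (1.10%) higher. Over all models compared 5.72% were lower and 2.62% higher. The median log2 ratio of *col* models was -1.10, beside 0.04 over all models compared. Without the filter the median over all 158 was -0.68. Over all 91, *hrde-1* was the lowest of the 5 libraries for 74 and the triple mutant the highest for 42, which is 81.3% and 46.2%, beside 23.9% and 15.7% over all models compared. WT was nearer the triple mutant for 71 of the 91, beside 5063 of 10132. *col-63* had 3.63 RPKM in *hrde-1*, 34.3 in the triple mutant, 12.88 in the double mutant, 14.1 in *set-32* and 15.6 in WT, and *col-138* had 10.26, 72.6, 37.5, 24.2 and 56.3 RPKM in the same order. *col-71* had 7.43 RPKM in *hrde-1* and 51.3 in the triple mutant, and *col-175* had 7.88 and 48.4 RPKM. Both *col-71* and *col-175* had 19.4 to 39.3 RPKM in the other 3 libraries, between these values. The 1 higher collagen, *col-53*, had 5.74 RPKM in *hrde-1* and 0.72 in the triple mutant and is in the sperm class of the deposited table.

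The collagens named for the body shape of their mutants had the lowest median of any list with more than 1 model compared. Of 21 models 19 were compared, 11 were at least 2-fold lower and 0 higher, and the median was -1.63, or -1.01 with a pseudocount of 5 RPKM. *rol-8* (II, 7544108 to 7545335) had 3.04 RPKM in *hrde-1*, 32.9 in the triple mutant, 11.07 in the double mutant, 10.79 in *set-32* and 12.48 in WT. *dpy-5* (I, 5432197 to 5433051) had 11.11 RPKM in *hrde-1*, 78.8 in the triple mutant, 24.97 in the double mutant, 18.7 in *set-32* and 49.3 in WT. Over all 19, the triple mutant was the highest library for 16 and *hrde-1* the lowest for 10. Among the 11 lower models *hrde-1* was not the lowest only for *bli-2*, with 1.72 RPKM in *hrde-1*, 18.3 in the triple mutant, 6.03 in the double mutant, 3.76 in *set-32* and 1.71 in WT. *lon-3* had 1.00 and 14.05 RPKM in the pair, with 2.63 in the double mutant, 6.96 in *set-32* and 2.99 in WT. Summed over all 21 models, the body-shape collagens came to 225.1 RPKM in *hrde-1*, 632.5 in the triple mutant, 325.8 in the double mutant, 317.7 in *set-32* and 322.9 in WT, so both mutants departed from WT, in opposite directions. For *col* genes the sums were 33350, 51557, 41092, 56572 and 45399 RPKM in the same order, and here *set-32* exceeded the triple mutant. In these sums, models of the same gene were added separately.

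Other cuticle-related lists were near the shares over all models (2.62% higher, 5.72% lower). Of 26 Hedgehog-related and molting models compared, 2 (7.69%) were 2-fold lower and 1 (3.85%) higher, with a median of -0.15. *grl-7* and *grl-16*, of the Hedgehog-related ground-like family, had 1.41 and 7.05 RPKM in *hrde-1*, against 7.88 and 23.4 RPKM in the triple mutant, while *mlt-3* had 5.88 RPKM in *hrde-1* and 1.22 in the triple mutant. In the *abu* and *pqn* genes, rich in glutamine and asparagine and in part expressed in the pharyngeal cuticle, 3 of 31 (9.68%) were lower and 0 higher, with a median of -0.02, among them *pqn-94* with 16.6 RPKM in *hrde-1* and 54.5 in the triple mutant. *pqn-75* had 1.01 and 7.56 RPKM, and *abu-14* had 2.32 and 7.70 RPKM.

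**Figure D4:**
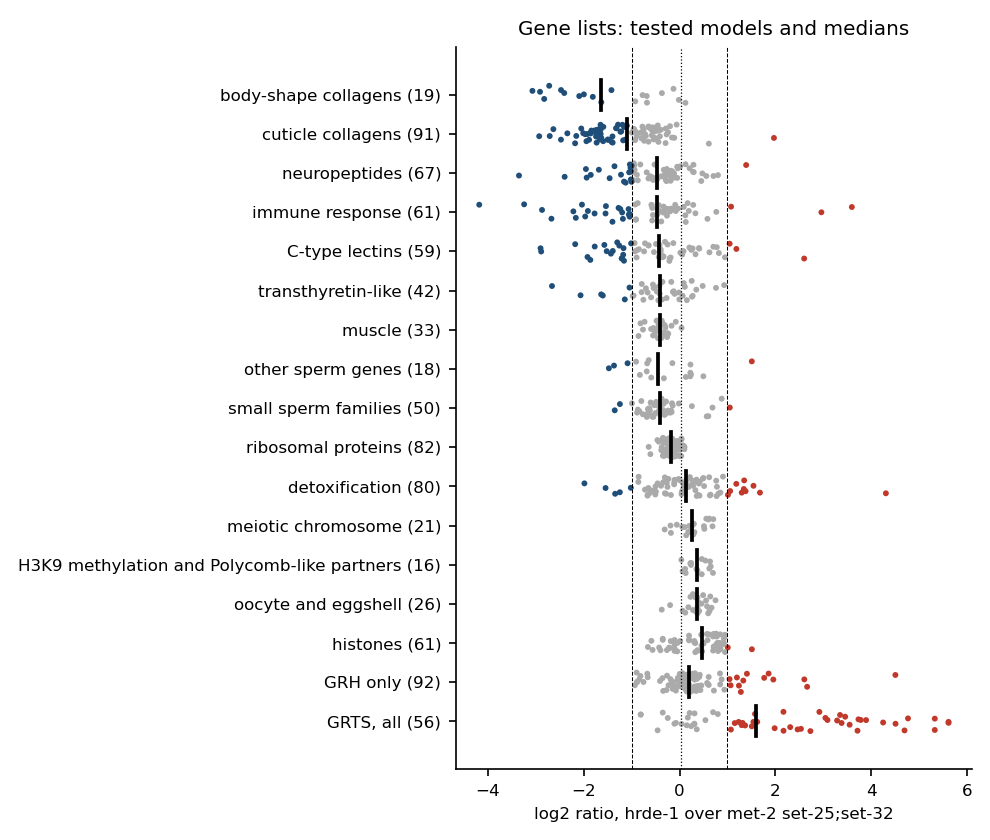
Log2 ratio of *hrde-1* over the triple mutant for every model compared in 15 gene lists and the GRH-only and GRTS lists, with the number of models in parentheses; red points are past 2-fold upward and blue points past 2-fold downward, black bars are medians, the dotted line is the median of all models (0.04) and dashed lines mark 2-fold. Collagen medians lie at -1.63 and -1.10, muscle at -0.41, oocyte genes at 0.37 and GRTS at 1.60.

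Markers of muscle, neurons and intestine were mostly lower in *hrde-1*, by less than 2-fold. Of 33 muscle models 0 passed 2-fold in either direction, yet 32 had a ratio below 0 on the log2 scale and the median was -0.41. The troponin T gene *mup-2* had 193.3 RPKM in *hrde-1*, 350.9 in the triple mutant, 264.1 in the double mutant, 330.1 in *set-32* and 330.1 in WT, while the exception, the actin gene *act-2*, had 1025 RPKM in *hrde-1* and 995.2 in the triple mutant. Summed muscle RPKM was 9576 in *hrde-1*, 12360 in the triple mutant, 10542 in the double mutant, 12285 in *set-32* and 11229 in WT. Of 9 neuronal models 8 were below 0, and 0 passed 2-fold. Of 8 intestinal models 2 were 2-fold lower, both of *ifb-2*, an intermediate filament gene of the intestine, with 26.6 RPKM in *hrde-1* for either model, against 57.6 and 56.8 RPKM in the triple mutant. *elt-2*, the transcription factor gene that defines the intestine, had 8.26 RPKM in *hrde-1* and 9.17 in the triple mutant, a ratio whose interval held 1. *mup-2*, *act-2* and *elt-2* did not pass 2-fold and are given as the ends or the defining marker of their lists.

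Germline markers leaned the other way, apart from sperm genes. Of 26 models of oocyte and eggshell genes 24 were above 0, 0 passed 2-fold and the median was 0.37. *lin-41*, an oocyte regulator and the highest of the list, had 117.2 RPKM in *hrde-1*, 69.3 in the triple mutant, 88.3 in the double mutant, 67.0 in *set-32* and 93.5 in WT. Summed RPKM of this list was 10626 in *hrde-1*, 8560 in the triple mutant, 9593 in the double mutant, 8497 in *set-32* and 8864 in WT. Meiotic chromosome genes (21, median 0.26) and germ granule genes (12, median 0.23) had no member past 2-fold. In the classes marked in the deposited table, 681 oocyte models had a median of 0.26 with 11 (1.62%) higher and 4 (0.59%) lower. The 749 intrinsic germline models had 0.20 with 18 (2.40%) higher and 9 (1.20%) lower. The 200 sperm models had -0.54 with 6 (3%) higher and 41 (20.5%) lower. Over all models compared 2.62% were higher and 5.72% lower, so the shares of higher models in these classes were near or below that level. Summed over its compared models, the oocyte class came to 49386 RPKM in *hrde-1*, 41219 in the triple mutant, 47550 in the double mutant, 40257 in *set-32* and 48769 in WT. The intrinsic class came to 44442, 39136, 43103, 38957 and 45203 RPKM in the same order. In both classes *hrde-1* lay near WT and the triple mutant below it. Muscle, neuron and intestine lists thus had medians below 0 and oocyte, meiotic and germ granule lists medians above 0, and the part of this in the ratios of single genes was not tested.

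Sperm genes were lower in *hrde-1* than in every other library by their sums. The small sperm families came to 1507 RPKM in *hrde-1*, 2033 in the triple mutant, 2275 in the double mutant, 4149 in *set-32* and 1869 in WT. Of 50 such models 2 (4%) were 2-fold lower and 1 (2%) higher, which is below the 5.72% and 2.62% over all models compared. Their median log2 ratio was -0.41. *nspd-6* had 13.7 RPKM in *hrde-1* and 36.5 in the triple mutant, *ssp-34* had 11.09 and 27.7, and *ssp-16*, on few reads, had 7.67 and 3.19. The sperm chromatin genes *spch-1*, *spch-2* and *spch-3* had 14.8, 9.52 and 11.94 RPKM in *hrde-1*, against 32.5, 26.2 and 35.0 RPKM in the triple mutant. All 3 were lowest in *hrde-1*, with WT at 26.7, 13.6 and 24.3 RPKM. *spe-41*, for a calcium channel of sperm and a GRTS gene, was instead higher, with 9.58 RPKM in *hrde-1* and 2.72 in the triple mutant.

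**Figure D5:**
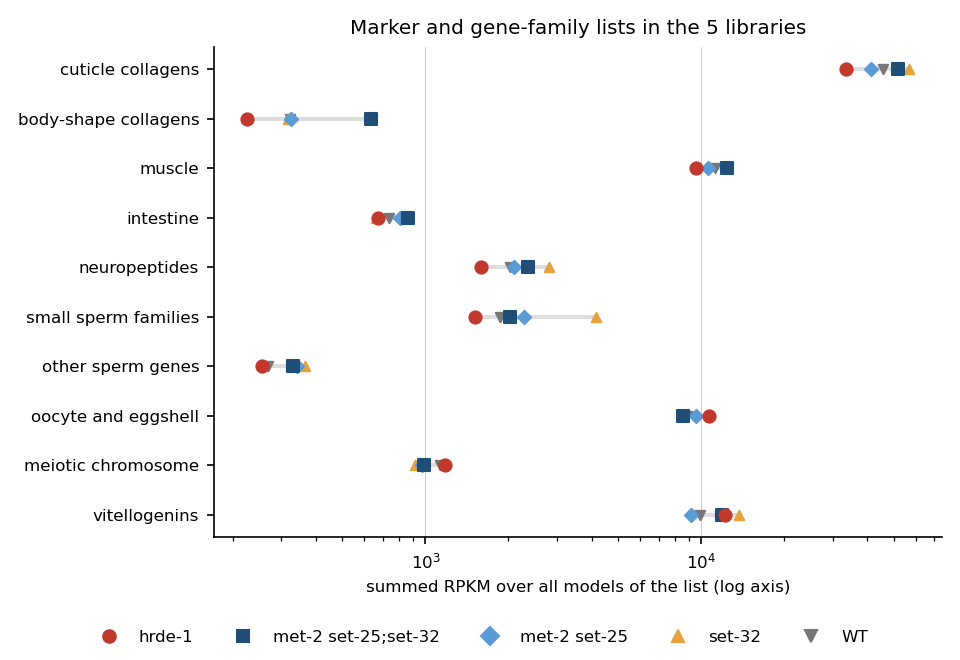
Summed RPKM, on a log axis, of all models of 10 marker and family lists in the 5 libraries; each symbol is 1 library and gray bars span the lowest to the highest. *hrde-1* is the lowest library for collagens, muscle and sperm lists and the highest for oocyte and eggshell genes (10626) and meiotic genes (1175), and the triple mutant is the highest for body-shape collagens (632.5).

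In the immune response list 21 of 61 models (34.4%) were 2-fold lower and 3 (4.92%) higher, beside 5.72% and 2.62% over all models compared. The median was -0.46, and -0.25 without the filter. Of the higher ones *irg-4* had the largest ratio on more than a few reads. The ratio of *fipr-16* was larger, but on about 3 reads in *hrde-1* and 0 in the triple mutant. *cnc-2* was given above, and *cnc-7*, on few reads, had 0 RPKM in *hrde-1* and 8.47 in the triple mutant. C-type lectin genes had 18 of 59 (30.5%) lower and 3 (5.08%) higher. Their median was -0.43, and 0.00 over all 241 lectin models without the filter. *clec-169* had 2.32 RPKM in *hrde-1*, 23.6 in the triple mutant, 23.6 in the double mutant, 1.58 in *set-32* and 5.18 in WT, and *clec-166* had 4.15, 22.3, 24.6, 8.88 and 5.0 RPKM in the same order. Both were high in the 2 genotypes without *met-2* and *set-25*. In contrast *clec-52* had 48.6 RPKM in *hrde-1*, 7.17 in the triple mutant, 4.66 in the double mutant, 18.8 in *set-32* and 7.96 in WT. Over all 59 lectin models, *hrde-1* was the lowest library for 16 and the triple mutant the highest for 23, which is 27.1% and 38.98%. Over all models compared these shares were 23.9% and 15.7%. WT was nearer the triple mutant for 15 of the 59, beside 5063 of 10132. The difference from the collagens in these counts was not tested.

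Neuropeptide and insulin genes had 18 of 67 models (26.9%) 2-fold lower and 1 (1.49%) higher, beside 5.72% and 2.62% over all models compared. The median was -0.46, and -0.25 without the filter. The interval excluded 1 for only 8 of the 18. *nlp-7* had 1.52 RPKM in *hrde-1* and 12.28 in the triple mutant, *nlp-1* had 1.58 and 8.89, and *nlp-34* and *flp-33*, whose intervals held 1, had 0 and 1.22 RPKM in *hrde-1*, against 9.20 and 7.60 RPKM in the triple mutant. Transthyretin-like genes, a nematode family of secreted proteins, had 6 of 42 (14.3%) lower and 0 higher. The neighbours *ttr-27*, *ttr-28* and *ttr-29* had 4.43, 1.57 and 2.24 RPKM in *hrde-1*, against 15.9, 9.76 and 19.5 RPKM in the triple mutant, and *ttr-33* had 4.49 and 15.7 RPKM.

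Apart from the target lists themselves, detoxification genes were, by count, the list with the most higher models. Of 80 models 10 (12.5%) were at least 2-fold higher and 5 (6.25%) lower, beside 2.62% and 5.72% over all models compared. The GRTS gene *ugt-22* is among the 10. The median was 0.13, or 0.00 without the filter. By family, counted after the values were seen, 6 of 25 cytochrome P450 models were higher, 4 of them *cyp-35* genes. *cyp-35* genes summed to 263.1 RPKM in *hrde-1*, 84.2 in the triple mutant, 56.5 in the double mutant, 76.6 in *set-32* and 67.4 in WT, so *hrde-1* stood above 4 libraries of similar level. The glutathione transferase genes *gst-22* and *gst-38* had 2.33 and 0.72 RPKM in *hrde-1*, against 8.71 and 5.81 RPKM in the triple mutant, and the interval of *gst-38* held 1. Of 17 cathepsin B and aspartyl protease models 2 were higher, *asp-12* and *asp-8*, and *asp-8* had 27.6 RPKM in *hrde-1*, 4.94 in the triple mutant, 4.62 in the double mutant, 13.9 in *set-32* and 13.8 in WT. The cathepsin B gene *cpr-3* had 8.35 RPKM in *hrde-1* and 18.5 in the triple mutant.

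F-box, MATH and BTB genes, adaptors of protein degradation, had 9 of 102 models (8.82%) higher and 10 (9.80%) lower (median 0.09). Over all models compared the shares were 2.62% and 5.72%. Besides *fbxb-14*, *fbxa-107* had 30.8 RPKM in *hrde-1*, 5.07 in the triple mutant, 1.02 in the double mutant, 10.93 in *set-32* and 11.3 in WT. *fbxa-43* and *math-40* were at 0 RPKM in *hrde-1* and at 6.58 and 5.14 RPKM in the triple mutant. In *fbxb* genes alone, counted after the values were seen, 5 of 10 were higher and 0 lower, with the GRH gene *fbxb-14* among the 5. Nuclear hormone receptor genes had 3 of 77 models (3.90%) higher, 2 of them of *nhr-88*, and 4 (5.19%) lower, close to the shares over all models. The *nhr-88* model with the largest ratio had 18.5 RPKM in *hrde-1*, 3.92 in the triple mutant, 4.35 in the double mutant, 3.43 in *set-32* and 3.23 in WT, and *nhr-156* had 8.48, 2.64, 0.74, 9.01 and 1.90 RPKM in the same order. *nhr-79* and *nhr-143* had 1.90 and 1.31 RPKM in *hrde-1*, against 7.35 and 5.18 RPKM in the triple mutant.

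In lipid metabolism 2 of 61 models were higher, *fat-3* and the elongase gene *elo-9* (14.8 RPKM in *hrde-1*, 6.82 in the triple mutant, and a log2 ratio of 1.02 that was 0.98 when ratios were shifted to a median of 0), and 2 were lower, both of *acdh-2*, an acyl-CoA dehydrogenase gene. The 2 *acdh-2* models had 17.7 and 22.4 RPKM in *hrde-1*, against 47.3 and 55.0 RPKM in the triple mutant, 13.6 and 16.9 in the double mutant, 72.9 and 87.8 in *set-32* and 19.1 and 23.1 in WT. Here *hrde-1* was close to WT and the 2 genotypes without *set-32* were high. Of 61 chaperone models 1 was lower, the small heat shock gene *hsp-17*, with 31.4 RPKM in *hrde-1* and 76.5 in the triple mutant. The metallothionein gene *mtl-1* had 5.95 RPKM in *hrde-1* and 0.93 in the triple mutant on 2 and 1 reads, with an interval of the ratio from 0.167 to 189.5, a difference not detectable at this depth.

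Genes of the silencing machinery itself differed little between the 2 mutants. In the list of heterochromatin readers and other histone methyltransferases, 16 of 16 models were above 0 and none passed 2-fold, with a median of 0.36 and a range from *lin-13* (32.02 RPKM in *hrde-1*, 31.2 in the triple mutant) to *hpl-1* (6.90 and 3.87 RPKM). *hpl-2*, for a heterochromatin protein 1 homolog that reads H3K9 methylation, had 97.4 RPKM in *hrde-1*, 61.7 in the triple mutant, 96.9 in the double mutant, 75.6 in *set-32* and 87.5 in WT, so the triple mutant was the low library. In the nuclear RNAi list 6 of 8 models were above 0 and none passed 2-fold. Ratios above 0 were not particular to these lists. They were found for 5437 of 10132 models compared, 575 of 681 oocyte-class models and 564 of 749 intrinsic germline models. *nrde-4* had 2 models with 32.2 and 34.9 RPKM in *hrde-1*, against 20.8 and 22.1 RPKM in the triple mutant, and *nrde-2* had 36.9 RPKM in *hrde-1* and 52.3 in the triple mutant. Of 34 models for small RNA synthesis 1 was 2-fold lower, *rrf-2*, for an RNA-dependent RNA polymerase, with 1.51 RPKM in *hrde-1*, 6.95 in the triple mutant, 6.6 in the double mutant, 1.61 in *set-32* and 2.60 in WT. None of 17 other Argonaute models passed 2-fold. The members of these lists that did not pass are given as the ends of their lists and were chosen after their values were seen.

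Histone genes had a median of 0.47 over 61 models, with 2 higher and 0 lower. *his-45* had 86.4 RPKM in *hrde-1*, 42.5 in the triple mutant, 66.3 in the double mutant, 66.5 in *set-32* and 58.6 in WT, and *his-38* had 21.8, 6.99, 12.36, 11.04 and 10.83 RPKM in the same order. The log2 ratio of *his-45*, 1.01, was 0.97 when ratios were shifted to a median of 0. The triple mutant was the lowest library for both, and for 36 of the 61 histone models (59.0%, beside 18.9% over all models compared). Near-identical histone copies can share reads, which makes single histone genes uncertain. Ribosomal protein genes (82, median -0.17), proteasome genes (35, median 0.15) and yolk protein genes (8, median 0.00) had no model past 2-fold in either direction.

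By chromosome, the median ran from 0.09 on I (1823 models), 0.05 on II (1732), 0.08 on III (1759), 0.05 on IV (1722) and 0.01 on V (1707) to -0.12 on X (1215). X was the only chromosome with a median below 0, while its 27 higher models (2.22%) and 78 lower ones (6.42%) were close to the shares over all models, 2.62% and 5.72%. Chromosome V held the most calls, 65 higher (3.81% of its models) and 141 lower (8.26%). Pseudogenes were higher in 16 (16%) and lower in 7 (7%) of 100 compared, beside 2.62% and 5.72% over all models.

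Some models called in the same direction lay side by side. Counting a run where called genes of the same direction had at most 1 gene between them, 117 of 562 lower genes (20.8%) and 36 of 251 higher genes (14.3%) were in runs of 2 or more. The more genes are called, the more of them adjoin by count alone, and these shares were not set against that. There were 12 lower runs and 2 higher runs of at least 3 genes. The longest held the 4 collagen genes *col-167*, *col-168*, *col-169* and *col-170* (X, 6323488 to 6332611), and others held *col-144*, *col-145* and *col-10* (V, 9159586 to 9165307), *cnc-4*, *cnc-3* and *cnc-2* (V, 1447195 to 1450183), *ttr-27*, *ttr-28* and *ttr-29* (V, 12903550 to 12906832) and *math-41*, *math-40* and *math-39* (II, 1824629 to 1833522). The 2 higher runs were D2096.9, D2096.10 and *timm-17B.2* (IV, 8381928 to 8397954) and Y46H3C.5, Y46H3C.7 and Y46H3C.6 (V, 1691029 to 1701617). Since the counting strand was not stated, overlapping neighbours may share reads.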

How the data were processed

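The authors sequenced poly(A)-enriched RNA from frozen worm grinds as 50-nt single-end reads, aligned them to release WS190 of the genome using Bowtie 0.12.7 (from the submitters' processing notes), used only perfect alignments and gave each position of a multiply aligned read an equal fraction of it. They deposited RPKM values per gene model, normalized to library depth and given to 2 decimals, for 5 libraries, with the germline class and list membership of each model. The strand used for counting is not given in the sources used here. Columns were tied to genotypes through the study's list of libraries.

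Models were matched by sequence name to WBcel235 (Ensembl release 115), which placed 20315 of 20911 (97.1%), and coordinates are of that build. Read numbers were estimated from the steps between low RPKM values and annotated coding or exon lengths. Of low values 51.6% to 54.5% were within 0.1 of whole reads (20% by chance), so read numbers and the 95% Clopper-Pearson intervals are approximate. The 596 models without a length have no interval and could not be named by the rule. RPKM are not counts, and no count model was fitted. Python 3.11.15, numpy 2.4.6, pandas 2.3.3, scipy 1.17.1 and matplotlib 3.10.9 were used, and the procedure was tested on simulated data.

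A model was called when it was at least 2-fold apart with a pseudocount of 1 RPKM. The rule for named genes took the 4 mutated genes, the 12 highest and 12 lowest ratios outside the target lists and the 8 highest and 4 lowest inside them, among models whose interval excluded 1, and up to 4 members past 2-fold of each of 35 lists. Others are marked as chosen after their values were seen. Members and lists were chosen with earlier results of these data known. The names *mut-8* and *rde-3* were not matched. The chemoreceptor name pattern caught mostly other families, so its counts (26 compared, 0 higher, 4 lower, median -0.11) say nothing about chemoreceptors. The list results not given in the report are those of metal genes (7, 1 higher, 0 lower, median 0.17), mitochondrial import genes (8, 1 higher, 0 lower, median -0.02) and cuticlins (1 compared, *cut-2*). Of the 265 higher and 580 lower models, 6 and 2 were identical to another model in every library.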

Additional observations from a re-analysis of the deposited data

How the results depend on the processing

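Counts of models moved with the filter and the pseudocount, and no direction was reversed for the counts or for the medians of the target lists. With a pseudocount of 5 RPKM, 109 models were higher and 275 lower, of which 71 and 275 were outside the lists. With a filter of 10 RPKM the counts were 168 higher and 335 lower (131 and 335 outside the lists), and with no filter 603 and 1414 (544 and 1410). With models chosen by the 3 other libraries, 150 were higher (136 outside the lists). Requiring an interval that excluded 1 left 143 higher models outside the lists. The GRTS median was 0.31 with no filter and 0.31 with models chosen by the 3 other libraries, beside 1.60. The GRH-only median stayed between 0.14 and 0.22. Of list medians, other Argonautes changed sign with no filter (0.16, against -0.04), yolk protein genes when ratios were shifted to a median of 0 (0.00, against -0.03) and *abu* and *pqn* genes with a filter of 10 RPKM (-0.02, against 0.08). Without the filter, list medians were nearer 0 for cuticle collagens (-0.68, against -1.10 with it), C-type lectins (0.00, against -0.43), immune response genes (-0.25, against -0.46), neuropeptides (-0.25, against -0.46) and detoxification genes (0.00, against 0.13). Of 97 named models past 2-fold, 20 were not past it with a pseudocount of 5 RPKM, among them *set-25*, *set-32*, *rrf-2*, *spe-41* and both *ifb-2* models, and *elo-9* and *his-45* were not past it on the shift either. The causes were not tested. No paired analysis was possible because the labels give no replicate numbers and each genotype had 1 library, and for the same reason no library could be left out. The lower depth of *hrde-1* limits its low values: 5 RPKM is about 9.06 reads per kb there, against 14.5 in the triple mutant.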
